A study of Brachypodium distachyon with 6 samples.

Results

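The genes described here were below 1 RPM in the roots of pruned *B. distachyon* plants and at or above that level in roots of intact plants. They were chosen by 3 conditions on the deposited RPM (reads of a gene per 1000000 reads counted on the listed genes of its library). A gene had to have less than 1 RPM in each pruned library, 1 RPM or more in each intact library, and a mean in pruned roots of at most 0.5 times the mean in intact roots. Of 19538 listed genes, 46 met the rule (0.235%). Because the rule used the same 6 libraries, the differences between pruned and intact roots given for these genes are a description of the choice and carry no test.

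The data are RNAseq of roots of the inbred line Bd21, collected 2 days after treatment from seedlings aged 2 weeks at the cutting. Pruned plants were cut with scissors to a stub of 1/3, and intact plants from the same boxes were left uncut. All plants grew in sterile boxes on agar medium with sucrose. There are 3 libraries of pruned and 3 libraries of intact roots, described by the study as biological replicates. Whether several seedlings went into a library is not given in the sources used here. Pruned replicates 2 and 3 were counted from R1 reads only, as their R2 reads were of low quality, while pruned replicate 1 and all intact libraries were counted from paired-end reads. The pruned libraries held 17278649 to 28420464 reads and the intact libraries held 18150223 to 21292543 reads, so that 1 RPM stands for 17.3 to 28.4 reads in pruned libraries and 18.2 to 21.3 reads in intact libraries. No gene name or root marker could be tied to the identifiers from the gene reference at hand, so the labelled tissue was not checked against markers.

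As background, cutting the leaves of a grass removes most of its photosynthetic tissue, and the roots, which are fed by sugar from the leaves, often slow their growth. Growth of roots is steered by hormones such as gibberellins, auxin, cytokinins and ethylene. Transcripts at the low end of an RNAseq range can come from genes that are active in a few cells only or weakly in many. A bulk root library cannot tell fewer cells of a type from less RNA per cell.

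The 46 genes were low in intact roots as well, and they were not silent in pruned roots. Mean expression in pruned roots ran from 0.251 to 0.837 RPM with a median of 0.594 RPM, and in intact roots from 1.07 to 5.27 RPM with a median of 1.65 RPM. Of the 46 genes, 45 had reads in every pruned library, and 42 had more than 3 reads in every pruned library. Among the 138 single values in pruned roots, 2 were 0 reads, 3 were 1 to 3 reads and 133 were higher, with a median of 14 reads and a maximum of 28 reads. The intact values ran from 19 to 121 reads with a median of 32 reads. The exception, Bradi3g27300, had 15 reads in 1 pruned library and none in the others. The label of genes switched off by pruning therefore did not hold across all pruned libraries for any of the 46, which had a lower level and not none. Summed over the 46 genes, expression was 25.5, 27.0 and 27.5 RPM in pruned replicates 1, 2 and 3, against 96.7, 91.6 and 90.7 RPM in intact replicates 1, 2 and 3.

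**Figure D1:**
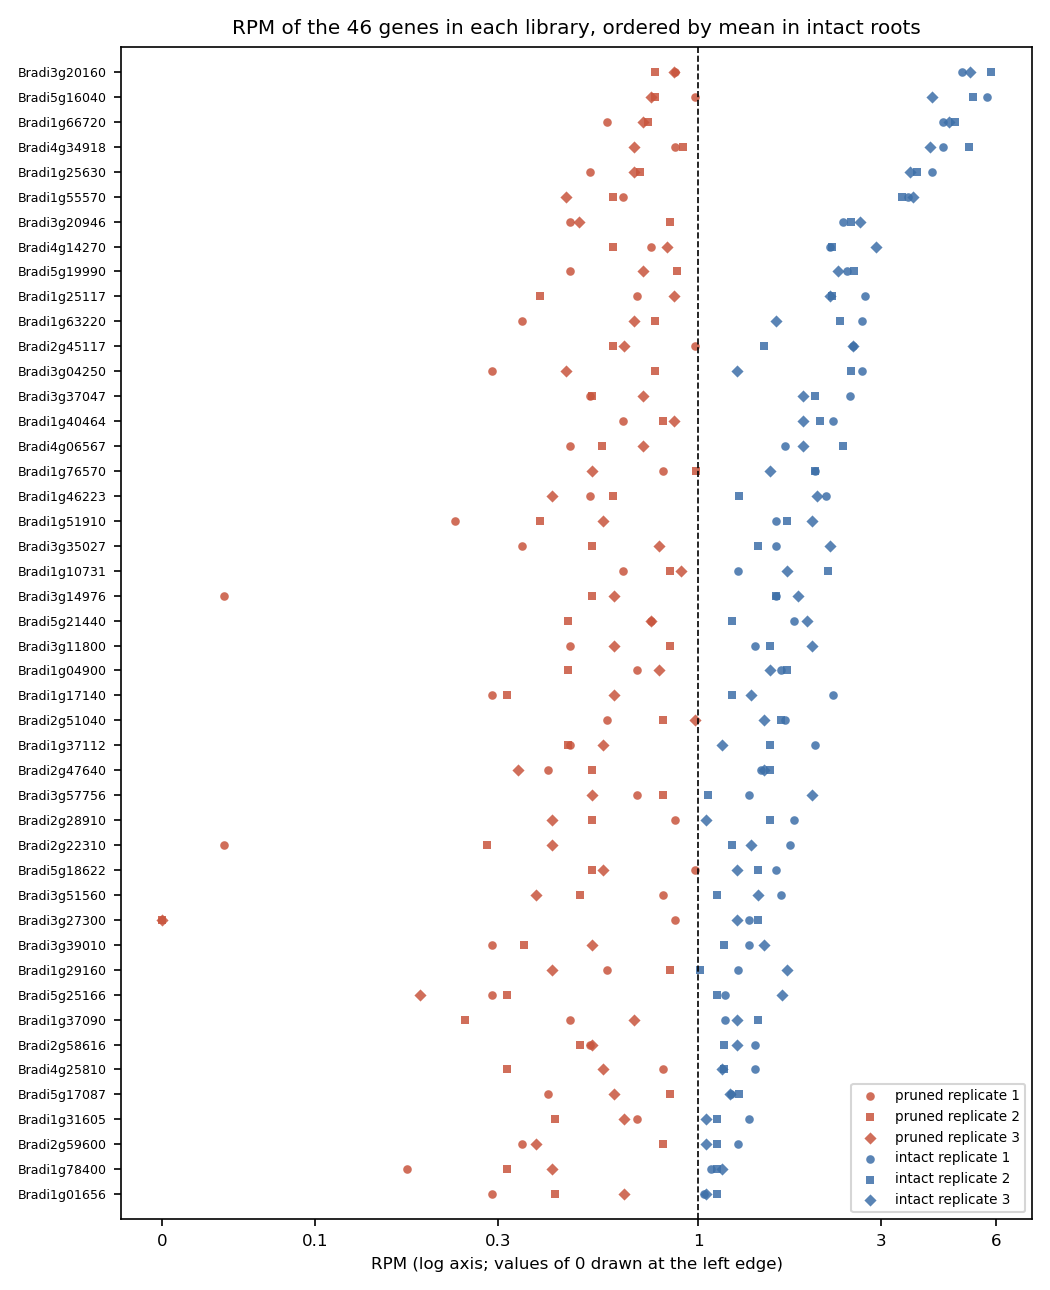
RPM on a log axis of each of the 46 genes in the 3 pruned libraries (red) and the 3 intact libraries (blue), with marker shapes for replicates, genes ordered by their mean in intact roots and the threshold of 1 RPM as a dashed line. Values of 0 are drawn at the left edge, and only Bradi3g27300 has any, in pruned replicates 2 and 3.

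Pruned roots had 2.00-fold to 6.67-fold less RNA of these genes by the ratio of mean RPM, with a median of 3.40-fold. The mean was at least 3-fold lower for 26 genes, at least 4-fold for 14, at least 5-fold for 7 and at least 6-fold for 3. By the rule the groups did not overlap in any of the 46 genes, and all pruned values lay below all intact values in 22.7% of the listed genes. Nothing is read from that count, since the rule used it. In the intact means of the 46 genes there was a gap between 2.51 and 3.52 RPM, of which no test was made. A set of 6 genes had intact means of 3.52 RPM or more, and the other 40 had intact means of 1.07 to 2.51 RPM. The 6 genes also held 6 of the 7 lowest ratios. The rule keeps every pruned value below 1 RPM, so a high intact mean brings a low ratio, and nothing is read from this. Their values ran from 0.453 to 0.984 RPM in pruned libraries and from 3.41 to 5.80 RPM in intact libraries. In the other 40 genes the mean was 2.00-fold to 5.75-fold lower.

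The lowest ratio was that of Bradi1g66720. It had 0.579, 0.739 and 0.716 RPM in pruned replicates 1, 2 and 3, against 4.37, 4.68 and 4.52 RPM in intact replicates 1, 2 and 3. These are 10, 21 and 19 reads in pruned libraries and 93, 88 and 82 reads in intact libraries, a mean 6.67-fold lower. The replicates of each group lay close together, and the highest pruned value lay below the lowest intact value by a factor of 5.91, the widest gap among the 46 genes.

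Bradi3g20160 was the most abundant of the 46 genes in intact roots. It had 0.868, 0.774 and 0.867 RPM in the pruned libraries, against 4.88, 5.80 and 5.12 RPM in the intact libraries, a mean 6.30-fold lower. Bradi1g55570 had 0.637, 0.598 and 0.453 RPM in pruned roots, against 3.52, 3.41 and 3.64 RPM in intact roots, a mean 6.26-fold lower. No function is attached to these 3 genes in the sources used here, although they had the 3 lowest ratios.

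Bradi1g25630 stands under response to stress, response to stimulus and integral component of membrane in the GO terms of the study. It had 0.521, 0.704 and 0.679 RPM in pruned roots, against 4.09, 3.73 and 3.58 RPM in intact roots, a mean 5.99-fold lower. All 3 intact values were more than 5 times the highest pruned value. Bradi4g34918, without an annotation here, had 0.868, 0.915 and 0.679 RPM in pruned roots, against 4.37, 5.11 and 4.02 RPM in intact roots, a mean 5.48-fold lower.

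Bradi5g16040 is annotated by the study as a gibberellin 2-beta-dioxygenase 8-like gene. Gibberellin 2-oxidases, another name of these enzymes, inactivate gibberellins or their precursors by hydroxylation. The gene had 0.984, 0.774 and 0.754 RPM in pruned replicates 1, 2 and 3, against 5.68, 5.22 and 4.08 RPM in intact replicates 1, 2 and 3, a mean 5.96-fold lower. In intact roots replicate 3 was the lowest, and it was still 4.14 times the highest pruned value. Pruned replicate 1 lay just under 1 RPM with 17 reads, and its 95% exact Poisson interval of 0.573 to 1.58 RPM covers the threshold. Such intervals cover counting error only, since reads of PCR products are not independent molecules.

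The hormone list of the study names 5 more gibberellin 2-oxidases, and Bradi5g16040 was the only one of the 6 under 1 RPM in all pruned libraries. Genes were called with limma on log2(RPM + 0.5) where the p adjusted over all genes by Benjamini-Hochberg was 0.05 or less and the change 2-fold or more. By this call 1 of the other 5 was higher and 1 lower, against a background of 2.54% of all genes called higher and 1.72% called lower. By the adjusted p alone, 4 were higher and 1 lower, against 30.1% higher and 20.2% lower among all genes. The median log2 fold change of the 5 genes was 0.89, and over all genes it was 0.04. The rows of all 6 genes passed a check that the printed fold lies within 0.1, or within 10%, of the ratio of mean RPM, but a row of another gene in that table did not, and the names themselves were not checked further. The study took the list from its DEGs of the same libraries, so the counts are no independent evidence. Without pruned replicate 1, intact replicate 2 or intact replicate 3, 2 of the 5 were called higher.

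Among these relatives, Bradi2g50280 fell to 2.14, 2.64 and 2.71 RPM in the pruned libraries, against 5.26, 7.34 and 5.79 RPM in the intact libraries (limma adjusted p = 3.6e-07, log2 fold change -1.14 with a standard error of 0.14). Bradi1g59570 rose to 2.26, 2.88 and 2.87 RPM in the pruned libraries, against 0.517, 0.798 and 1.10 RPM in the intact libraries (limma adjusted p = 3.1e-06, log2 fold change 1.30 with a standard error of 0.19). Bradi5g16040 and Bradi2g50280 were thus the 2 most abundant of the 6 genes in intact roots, and both had less RNA in pruned roots. The other 3 genes were higher by the adjusted p, but by less than 2-fold on this scale. Bradi2g06670 had 2.73 ± 0.138 RPM in pruned and 1.31 ± 0.212 RPM in intact roots (SD, n = 3 libraries each). Bradi2g19900 had 4.68 ± 0.393 RPM in pruned and 2.36 ± 0.708 RPM in intact roots. Bradi2g12440 had 4.34 ± 0.740 RPM in pruned and 2.14 ± 0.641 RPM in intact roots.

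In the GO terms of the study, 2 of the 46 genes stand under regulation of transcription by binding to DNA. Bradi4g06567 is listed under core promoter binding and protein dimerization activity. It had 0.463, 0.563 and 0.716 RPM in pruned roots, against 1.69, 2.39 and 1.87 RPM in intact roots, a mean 3.42-fold lower. Bradi1g63220 is listed under transcription factor activity with sequence-specific DNA binding. It had 0.347, 0.774 and 0.679 RPM in pruned roots, against 2.68, 2.34 and 1.60 RPM in intact roots, a mean 3.68-fold lower. In both genes the pruned and intact values lay apart, with pruned replicate 1 the lowest of the 6 libraries.

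In the GO terms of the study, core promoter binding has 4 further genes, none of which came under 1 RPM in any library. The study drew these terms from its DEGs of the same libraries. The 4 are therefore not all genes of the term, and their counts are no independent evidence. With limma and the 2-fold threshold, 0 were higher and 1 was lower, against 2.54% of all genes called higher and 1.72% called lower. By the adjusted p alone, 2 were higher and 2 lower, against 30.1% higher and 20.2% lower among all genes. The median log2 fold change of the 4 genes was 0.02, and over all genes it was 0.04. Bradi2g10340 fell to 1.91, 2.08 and 2.07 RPM in pruned roots, against 4.79, 4.47 and 4.63 RPM in intact roots (limma log2 fold change -1.03, standard error 0.13, adjusted p = 8.1e-07). Without pruned replicate 1, and likewise with a pseudocount of 1, no gene of the 4 was called lower at 2-fold. Bradi1g14600 rose to 8.29 ± 1.07 RPM in pruned roots, against 4.83 ± 0.224 RPM in intact roots (SD, n = 3 each, limma adjusted p = 1.5e-05), which is under 2-fold.

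Bradi1g51910 is listed under transporter activity. It had 0.232, 0.387 and 0.566 RPM in pruned roots, against 1.60, 1.70 and 1.98 RPM in intact roots, a mean 4.46-fold lower. It is among the 2 genes of the 46 for which the counting intervals of all 6 libraries lay on their own side of 1 RPM. Bradi3g37047 is listed under response to lipid, response to alcohol and response to acid chemical, terms that hold genes responding to abscisic acid among others. It had 0.521, 0.528 and 0.716 RPM in pruned roots, against 2.49, 2.02 and 1.87 RPM in intact roots, a mean 3.62-fold lower. Bradi1g40464 and Bradi1g04900 are listed as integral components of membrane. Bradi1g40464 had 0.771 ± 0.120 RPM in pruned and 2.07 ± 0.191 RPM in intact roots, and Bradi1g04900 had 0.648 ± 0.172 RPM in pruned and 1.63 ± 0.0811 RPM in intact roots (SD, n = 3 each).

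In all, 14 of the 46 identifiers are printed in the supplementary tables of the study, and 7 of them under a GO term. Gene names stand there beside 8 of the 46 identifiers, and the name of Bradi5g16040 alone was used. Of 6 genes named in a table other than that of the hormone genes, Bradi3g14976, Bradi3g20946, Bradi1g17140, Bradi1g46223 and Bradi1g40464 have a printed direction opposite to their deposited RPM, so that name and identifier may not belong together. The name of Bradi2g28910 was left out with them because it comes from the same table, although its own row passed this check. For Bradi2g51040, in the table of hormone genes, the printed fold differs from the ratio of its RPM. The remaining 32 genes have no annotation in the sources used here.

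Among the remaining genes of the upper part of the range, Bradi3g20946 had 0.463, 0.844 and 0.490 RPM in pruned roots, against 2.40, 2.50 and 2.64 RPM in intact roots. Bradi4g14270 had 0.752, 0.598 and 0.830 RPM in pruned roots, against 2.21, 2.24 and 2.92 RPM in intact roots. Bradi5g19990 had 0.463, 0.880 and 0.716 RPM in pruned roots, against 2.44, 2.55 and 2.31 RPM in intact roots. In these 3 genes each intact value was more than 2 times each pruned value. Bradi2g45117 lay closer, with 0.984, 0.598 and 0.641 RPM in pruned roots, against 2.54, 1.49 and 2.53 RPM in intact roots, where replicate 2 was the low one.

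At the lower end, Bradi5g25166 had 0.289, 0.317 and 0.189 RPM in pruned roots, against 1.17, 1.12 and 1.65 RPM in intact roots, a mean 4.96-fold lower. Bradi1g17140 had 0.289, 0.317 and 0.603 RPM in pruned roots, against 2.25, 1.22 and 1.38 RPM in intact roots. Bradi1g78400 had 0.174, 0.317 and 0.415 RPM in pruned roots, against 1.08, 1.12 and 1.16 RPM in intact roots. Bradi5g25166, Bradi1g78400 and Bradi2g22310 were the 3 genes that also met the rule with a threshold of 0.5 RPM. A further 7 genes, Bradi2g47640, Bradi3g39010, Bradi3g35027, Bradi3g11800, Bradi5g21440, Bradi3g57756 and Bradi1g10731, had means of 0.390 to 0.795 RPM in pruned and 1.34 to 1.75 RPM in intact roots, and their means were 2.16-fold to 3.53-fold lower.

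**Figure D2:**
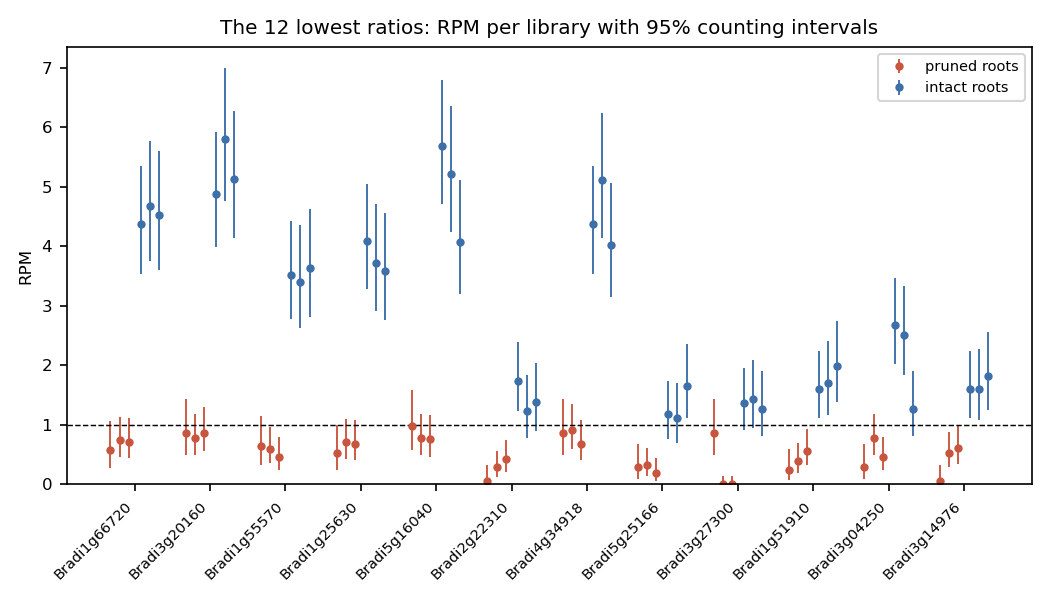
RPM of the 12 genes with the lowest ratio of pruned to intact mean, 1 point per library with its 95% exact Poisson interval of counting error, pruned roots in red left of intact roots in blue, and 1 RPM as a dashed line. Bradi1g66720 stands first with 0.579 to 0.739 RPM in pruned roots and 4.37 to 4.68 RPM in intact roots, and Bradi3g27300 has 1 pruned library at 0.868 RPM and 2 at 0.

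At the low end of expression, several genes differed more between pruned replicates than between intact ones, which also held more reads of them. Bradi3g27300 had 0.868, 0 and 0 RPM in pruned replicates 1, 2 and 3, against 1.36, 1.44 and 1.27 RPM in intact replicates 1, 2 and 3. The pruned values are 15, 0 and 0 reads, and the 95% exact Poisson interval of a count of 0 reaches 0.130 RPM for replicate 2 and 0.139 RPM for replicate 3 of the pruned roots. The paired-end pruned library thus had reads of this gene and both libraries counted from R1 reads had none. The gene next to it in identifier order, Bradi3g27277, had 2.95, 0.387 and 0.415 RPM in pruned replicates 1, 2 and 3. In intact replicates 1, 2 and 3 it had 2.02, 2.98 and 1.82 RPM. Bradi3g27260, the gene beyond it, had no such split, with 11.5, 10.3 and 10.6 RPM in the pruned libraries. The cause of the split was not tested. Among all listed genes, 0 were at 0 reads in pruned replicate 1, 2 in pruned replicate 2 and 1 in pruned replicate 3. For Bradi3g27300, the value of pruned replicate 1 alone was above 0.5 times the intact mean.

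The opposite order was found in Bradi3g14976 and Bradi2g22310. Bradi3g14976 had 0.0579, 0.528 and 0.603 RPM in pruned roots, against 1.60, 1.60 and 1.82 RPM in intact roots, and pruned replicate 1 held 1 read. Bradi2g22310 had 0.0579, 0.281 and 0.415 RPM in pruned roots, against 1.74, 1.22 and 1.38 RPM in intact roots, and again pruned replicate 1 held 1 read. Its mean of 0.251 RPM was the lowest in pruned roots among the 46 genes.

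Over the 46 genes, pruned replicate 1 was below both other pruned libraries in 22 genes (47.8%) and above both in 10 (21.7%). For the 169 other listed genes with a pruned mean below 1 RPM, the shares were 33.7% and 40.2%, and for all genes 34.4% and 38.9%. The rule asked every pruned value to be below 1 RPM, while the 169 genes needed only a mean below it. The choice thus left out genes in which a single pruned library ran high, and nothing is read from the difference in shares. The median log2 ratio of pruned replicate 1 to the mean of replicates 2 and 3 was -0.07 for the 46 genes, 0.02 for the 169 genes and 0.01 for all genes, on RPM + 0.5. Read layout, depth and replicate cannot be told apart here. Pruned replicate 1 held 17278649 reads, and pruned replicates 2 and 3 held 28420464 and 26518230 reads. The parts of read layout and depth in these values were not tested. With only the paired-end libraries used, 40 of the 46 genes still met the rule. The limits on single libraries held for all 46 by the choice, so only the ratio of means could fail. This count is therefore no test of read layout. The exceptions were Bradi3g27300, Bradi3g51560, Bradi2g28910, Bradi5g18622, Bradi4g25810 and Bradi1g31605.

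The counting error of single values is wide at this level. Of the 138 pruned values, 77 had a 95% exact Poisson interval wholly below 1 RPM, and of the 138 intact values 82 had an interval wholly above it. All 3 pruned intervals lay below 1 RPM for 11 genes, and all 3 intact intervals lay above it for 18. Both held for 2 genes, Bradi1g51910 and Bradi3g14976. The 6 most abundant genes missed this mark only through their pruned values, such as that of Bradi1g66720 in pruned replicate 2, where 21 reads have an interval of 0.457 to 1.13 RPM. For the other 44 genes at least 1 interval reached across 1 RPM.

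The groups lay at different distances from each other. The highest pruned value was below the lowest intact value by a factor of at least 2 in 25 genes and by less than 1.5 in 10 genes, with a median of 2.05. The narrowest gap, a factor of 1.20, was that of Bradi1g29160, with 0.579, 0.844 and 0.415 RPM in pruned roots, against 1.27, 1.01 and 1.71 RPM in intact roots. Bradi2g28910 came next with 0.868, 0.528 and 0.415 RPM in pruned roots, against 1.78, 1.54 and 1.05 RPM in intact roots. Between replicates, the highest value was a median of 1.82 times the lowest in pruned roots, leaving out the gene with 0 reads, and 1.27 times in intact roots. The rule picked low pruned values, with a median of 14 reads against 32 reads in intact libraries. Counting error is wider at fewer reads, so nothing is read from this difference in spread. Bradi3g04250 had the widest spread in intact roots, with 2.68, 2.50 and 1.27 RPM there, against 0.289, 0.774 and 0.453 RPM in pruned roots.

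The limits of the rule cut through a continuous range of values. Just inside the limit on pruned libraries stood Bradi1g76570, with 0.810, 0.985 and 0.528 RPM in pruned roots against 2.02, 2.02 and 1.54 RPM in intact roots. Just outside it stood Bradi3g45350, with 0.579, 1.02 and 0.830 RPM in pruned roots against 7.14, 6.28 and 6.39 RPM in intact roots, a lower ratio than that of any of the 46 genes. Bradi3g31690 and Bradi1g63390 also missed the limit by a highest pruned value of 1.02 RPM. On the ratio of means, Bradi5g17087 (0.499), Bradi1g31605 (0.498) and Bradi2g51040 (0.491) stood just inside, and Bradi3g05703 (0.502), Bradi3g46720 (0.507) and Bradi2g19660 (0.507) just outside.

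On the limit for intact libraries, Bradi1g29160 (lowest value 1.01 RPM), Bradi1g01656 (1.03 RPM) and Bradi2g59600 (1.05 RPM) stood just inside, and no listed gene outside. Every gene of the deposited table reached 1 RPM in 3 libraries or more. A gene below 1 RPM in all pruned libraries was therefore listed only if all intact libraries reached 1 RPM, and each of the 46 genes entered the table through its intact values alone. Of the 68 listed genes below 1 RPM in all pruned libraries, 46 met the limit on the ratio of means, and the other 22 had ratios of 0.502 to 0.804.

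**Figure D3:**
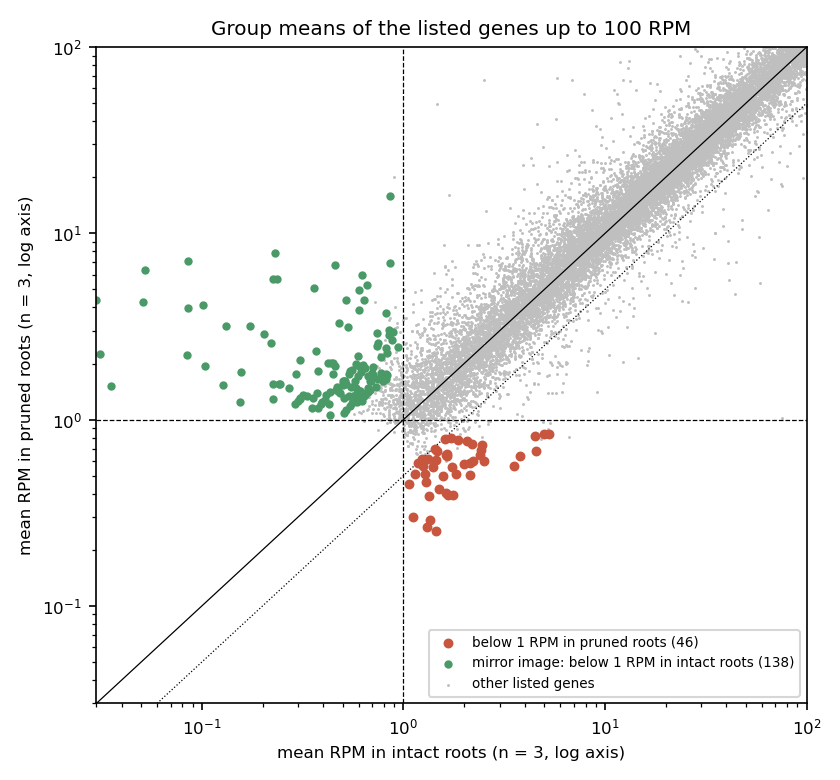
Mean RPM in pruned roots (vertical) against mean RPM in intact roots (horizontal) of the listed genes, both on log axes, with the 46 genes in red and their mirror image in green. The solid line marks equal means, the dotted line a pruned mean of 0.5 times the intact mean and the dashed lines 1 RPM, and values below the axes are drawn at the edge. The 46 genes lie to the right of the vertical and below the horizontal dashed line, at intact means of 1.07 to 5.27 RPM.

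The mirror image of the rule, with 1 RPM or more in every pruned and less in every intact library and means at least 2-fold apart, held for 138 genes (0.706% of the table), 3 times the number of the genes described here. With all counting intervals on their own side of 1 RPM, the numbers were 2 genes under the rule and 22 under its mirror image. At thresholds of 2, 5 and 10 RPM in place of 1 RPM, 55, 65 and 61 genes were below in all pruned and not below in any intact library, against 135, 120 and 116 genes in the mirror image. After quantile normalization of the libraries the 2 numbers at 1 RPM were 67 and 94, and after median-ratio scaling 50 and 134. All 46 genes were kept under both scalings. These are counts of genes, and no test was made of their difference.

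**Figure D4:**
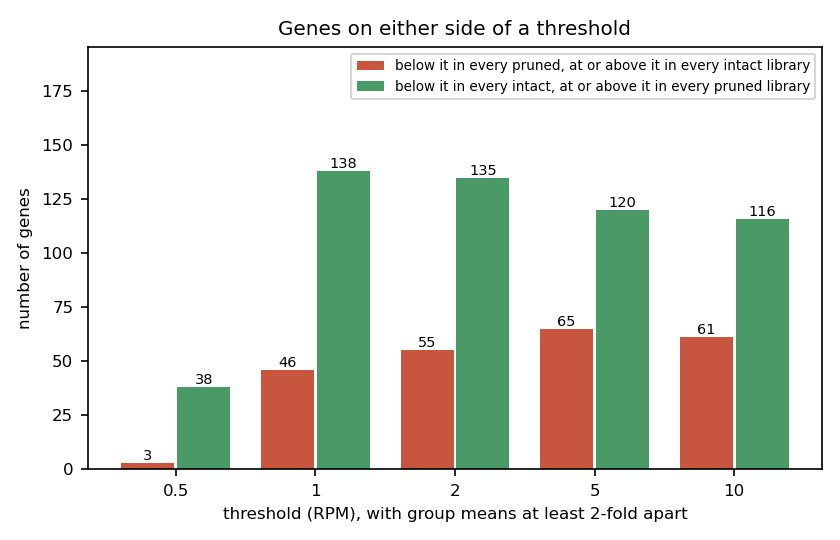
Number of genes below a threshold in every pruned and at or above it in every intact library (red, left) and of genes in the mirror image (green, right), with group means at least 2-fold apart, for thresholds of 0.5, 1, 2, 5 and 10 RPM. Red bars hold 3, 46, 55, 65 and 61 genes and green bars 38, 138, 135, 120 and 116 genes. Every listed gene reached 1 RPM in 3 libraries or more. The bars at 0.5 RPM therefore hold only genes at 1 RPM or more in every library of the higher group.

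In the fit of all genes, 28 of the 46 genes were called lower, where 1.72% of all genes were called lower. Nothing is read from this count, since the rule used the same contrast. The fold change on log2(RPM + 0.5) is smaller than the ratio of means for such low genes. The median was -1.10 on this scale and -1.76 as the log2 of the ratio of means. The quasi-likelihood test of edgeR on reads called 443 of all genes lower and 601 higher, with 45 of the 46 among those lower and Bradi5g17087 as the exception.

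By position, the 46 genes were spread over all 5 chromosomes, as read from their identifiers. Chromosome 1 held 18 of them (39.1%, and 29.6% of the listed genes), chromosome 2 held 7 (15.2% and 22.8%), chromosome 3 held 11 (23.9% and 22.7%), chromosome 4 held 4 (8.7% and 15.6%) and chromosome 5 held 6 (13.0% and 9.32%). A single pair of the 46 stood within 10 listed genes of each other in identifier order, Bradi1g37090 and Bradi1g37112 on chromosome 1, with 1 listed gene between them. Bradi1g37090 had 0.463, 0.246 and 0.679 RPM in pruned roots, against 1.17, 1.44 and 1.27 RPM in intact roots. Bradi1g37112 had 0.463, 0.457 and 0.566 RPM in pruned roots, against 2.02, 1.54 and 1.16 RPM in intact roots. The gene between them, Bradi1g37100, was far more abundant, at 27.4 ± 1.83 RPM in pruned and 34.2 ± 1.36 RPM in intact roots (SD, n = 3 each, limma log2 fold change -0.32, adjusted p = 2.9e-04).

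The genes around the 46 were looked at in a wide and a narrow window, and no test was made of their shares. Of 451 other genes within 5 listed genes on either side, 9 were called lower with limma (2.00%, and 1.72% of all genes) and 11 were called higher (2.44%, and 2.54% of all genes). Without intact replicate 1 the number called higher was 7. Their median log2 fold change was 0.06, and that of all genes was 0.04. Among the 91 direct neighbours, 3 were called lower (3.30%, and 1.72% of all genes) and 1 higher (1.10%, and 2.54% of all genes).

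Of the direct neighbours, the 3 called lower are given here and the 1 called higher is not. Each of the 3 was more abundant than the gene beside it. Bradi1g46220 fell to 14.5, 13.1 and 12.7 RPM in pruned roots, against 40.2, 35.0 and 40.7 RPM in intact roots (limma log2 fold change -1.49, standard error 0.08, adjusted p = 7.2e-14). Next to it, Bradi1g46223 had 0.521, 0.598 and 0.415 RPM in pruned roots, against 2.16, 1.28 and 2.04 RPM in intact roots. Bradi1g25130 fell to 8.80, 8.09 and 7.43 RPM in pruned roots, against 18.2, 18.8 and 20.0 RPM in intact roots (limma log2 fold change -1.18, standard error 0.09, adjusted p = 8.2e-11). Beside it, Bradi1g25117 had 0.695, 0.387 and 0.867 RPM in pruned roots, against 2.72, 2.24 and 2.20 RPM in intact roots. Bradi2g58630 fell to 53.2 ± 2.52 RPM in pruned roots, against 107 ± 4.83 RPM in intact roots, and Bradi2g58616 beside it had 0.514 ± 0.0187 RPM in pruned and 1.28 ± 0.120 RPM in intact roots (SD, n = 3 each). The log2 fold change of Bradi2g58630 was -1 (limma, standard error 0.05, adjusted p = 1.4e-13), right at the 2-fold limit of the call. Since the strand setting of the counts is not given and gene models were not at hand, reads of overlapping neighbours cannot be told apart here.

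The identifiers of 19 of the 46 genes (41.3%) end in a digit other than 0, as those of genes placed between earlier gene models do. The share was 28.1% among all listed genes, 48.6% in the mirror image and 46.4% among the 4188 genes with at least 1 RPM in all intact libraries and an intact mean in the range of the 46. The 46 genes made up 1.10% of these 4188 genes of like abundance.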

How the data were processed

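Root RNA was measured in 3 libraries of pruned and 3 libraries of intact plants. As the paper describes, reads of 150 nt were trimmed with SolexaQA and cutadapt, aligned to the genome of phytozome with Tophat, and uniquely mapped reads were counted per gene. HTSeq is named in the submitters' processing notes. The authors deposited RPM, which sum to 1000000 per library. All values were whole multiples of 1 step, within 0.01 reads for 100% of the genes, which gave the reads. The lowest value above 0 was 1 read, with the exceptions of pruned replicate 2 (4 reads) and pruned replicate 3 (2 reads).

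Limma 3.58.1 in R 4.3.3 (lmFit, eBayes with trend=TRUE) was run on log2(RPM + 0.5) of all 19538 genes, two-sided, with Benjamini-Hochberg adjustment. Filtering on 0.5 RPM in 3 or more libraries removed no gene. With 3 libraries a group, exact permutation p-values stop at 0.1. Reads were tested with edgeR 4.0.16 (quasi-likelihood and exact tests) and with DESeq2 1.42.0, and these, other pseudocounts, scalings, thresholds, designs and left-out libraries were the alternatives. Each tool was tested on simulated data first. Thresholds of 5 and 10 RPM, the mirror image, the neighbour windows, the gene lists from the supplementary tables and the counting intervals were added after seeing the data. Tables were handled with pandas 2.3.3 and numpy 2.4.6 in Python 3.11.15, intervals came from scipy 1.17.1 and plots from matplotlib 3.10.9.

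The 46 genes and the lists were chosen with earlier results of these data known. Named genes are the 12 with the lowest ratio, the 12 most abundant in intact roots, those with 0 reads in a pruned library, close neighbours, those printed in supplementary tables and those at the limits of the rule. Neighbouring genes, the other members and the 6 exceptions with paired-end libraries were named after their values were seen. Because 0 identifiers matched the RefSeq gene table, gene families, marker lists, coordinates, promoters and proteins were not analysed here.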

Additional observations from a re-analysis of the deposited data

How the results depend on the processing

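The number of genes under the rule was 46, and 3 with a threshold of 0.5 RPM and 14 with a ratio of at most 0.25. With paired-end libraries only it was 73, but these leave a single pruned library and so fewer conditions to meet. It was 2 with all counting intervals on their side of 1 RPM. The mirror image of the rule held 138 genes, and 38, 52 and 22 with the first, second and last of these settings. Every listed gene reached 1 RPM in 3 libraries or more. The numbers at 0.5 RPM therefore lack genes with a value of 0.5 to 1 RPM in the higher group. Leaving out a library gave 46 to 64 genes under the rule, with 41 to 44 of the 46 kept, and 136 to 158 in the mirror image. Without an intact library the number under the rule was 46 each time. There only the ratio of means could change which genes met the rule. At a 1.5-fold threshold, 933 of all genes were lower in place of 337 and 1624 were higher in place of 496. Leaving out a library gave 327 to 350 lower and 485 to 510 higher genes. Of the 46 genes, 28 were called lower, and 10 with a pseudocount of 1, 45 with either edgeR test or DESeq2, 46 at 1.5-fold and 25 to 30 without a library. The 5 other gibberellin 2-oxidases had 1 gene called higher, but 4 with a pseudocount of 0.1 or at 1.5-fold, 3 with either edgeR test, 2 with DESeq2 and 1 to 2 without a library. The number called lower was 1 throughout these, also without any library. Of the 4 other core promoter binding genes, 1 was called lower, and 0 with a pseudocount of 1 or without pruned replicate 1. Of the 451 genes around the 46, 9 were lower and 11 higher, but 26 and 32 at 1.5-fold. The number higher was 6 with a pseudocount of 1 and 7 with quantile normalization or without intact replicate 1. The 9 listed relatives kept their direction and an adjusted p of at most 0.05 under the 16 alternatives of test, scaling and libraries. They were taken from lists of DEGs of the same libraries, so this is no independent evidence.

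Same-numbered pruned and intact libraries had deviations with correlations of -0.03, 0.20 and 0.08 across genes, so the numbers were not taken as pairs. With the replicate block 28 of the 46 genes were called lower, as without it. Depth limits the place of single values against 1 RPM, which stands for 17.3 to 28.4 reads. The cause of the differences between tools was not tested.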
